A study of Mus musculus with 6 samples.

Results

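Toll-like receptors are the germline-encoded sensors with which innate immune cells detect molecules of microbes and of damaged cells, and Myd88 is the adapter through which most of them signal. The 10 genes described here are Tlr1 to Tlr9 and Myd88, taken by gene symbol, and each has 1 row in a table of 18211 genes. They were measured by RNA-seq in OPCs (precursors of oligodendrocytes, which later make myelin) that had been isolated from mouse brain at P7 by immunopanning on PDGFRα and were sequenced straight after isolation. The comparison asked how the OPC transcriptome differs between 3 wildtype libraries and 3 libraries from DISC1-Δ3 mice. DISC1-Δ3 mice carried NG2-CreERTM together with 1 floxed copy of DISC1 exon 3 (genotype NG2-CreERTM:DISC1 exon3 fl/+), so that recombination could remove that exon from 1 allele only. The study's text describes the wildtype mice as lacking the CreERT transgene. Both groups were C57BL/6 and both received tamoxifen by gavage on 4 consecutive days, from P4 to P7. The NG2 promoter that drives the recombinase is active in pericytes as well as in OPCs. Sex and the number of pups behind a library were not given in the sources used here, and nothing states that replicates were separate animals, so p-values measure the spread between these libraries, which may be technical.

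Toll-like receptors fall into those of the cell surface and those of endosomes. At the surface, Tlr2 pairs with Tlr1 or Tlr6 to bind bacterial lipopeptides, Tlr4 binds lipopolysaccharide with the help of Cd14 and Ly96, and Tlr5 binds flagellin. In endosomes, Tlr3 binds double-stranded RNA, Tlr7 and Tlr8 bind single-stranded RNA, and Tlr9 binds unmethylated CpG DNA. All of these receptors except Tlr3 recruit Myd88, which assembles Irak kinases and leads to activation of NF-kB, whereas Tlr3 signals through the adapter Ticam1. In the brain, microglia are the main cells that carry these receptors.

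Rounded expected counts summed to between 13716619 and 16417219 reads per library. The chi-square of counts per degree of freedom was 1.8 to 2.97 between wildtype replicates and 2.59 between DISC1-Δ3 replicates 1 and 2, but 4.99 and 5.39 for the pairs with DISC1-Δ3 replicate 3, which therefore stood apart from the rest of its group. The targeted gene, Disc1, measured 3.51, 3.34 and 3.81 RPKM (reads scaled by transcript length and library total) in wildtype and 2.86, 2.44 and 2.85 RPKM in DISC1-Δ3 libraries. Its log2 fold change, DISC1-Δ3 over wildtype, was -0.45 ± 0.088 (SE, adjusted p = 0.000528 in the edgeR test used below). This value covers the whole gene and does not separate its splice variants. The libraries labelled as OPCs also held high levels of microglial transcripts. In wildtype, the summed RPKM of 18 microglial markers was 17637 to 17985 and in DISC1-Δ3 it was 12417 to 12904, with none of the markers at 0, and all 18 fell (median log2 fold change -0.49). By comparison, 10 OPC markers summed to 524 to 543 RPKM in wildtype, and in DISC1-Δ3 to 664 to 688 RPKM. Other cell types were also present in the marker sums. In wildtype, 8 markers of mature oligodendrocytes summed to 2445 to 2477 RPKM and 7 of astrocytes to 1690 to 1719 RPKM. The lists differ in size and in the level of their genes, so the sums do not measure shares of cells. In such bulk samples, fewer cells of a type and less RNA per cell cannot be told apart. The summed RPKM of 4 Y-linked genes was 15.8 to 17.4 in wildtype and 3.65 to 5.11 in DISC1-Δ3 libraries, so the groups also differed in Y-linked transcripts.

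Among the 9 genes that could be tested, 8 fell and 1, Tlr2, rose in DISC1-Δ3 libraries (edgeR's quasi-likelihood test, Benjamini-Hochberg adjusted p under 0.05). Across all 13792 tested genes, 39.9% passed by the same rule, of which a share of 19.5% of the tested genes fell and 20.4% rose. Tlr7, the endosomal receptor for single-stranded RNA, fell the furthest and was reduced by more than a factor of 2, and Tlr6, Tlr4, Tlr3, Tlr1 and Tlr5 fell by 34.3% to 49.2%. Tlr9 and Myd88 moved less, and Tlr8 was barely detected. The median log2 fold change of the 9 genes was -0.64, against 0.007 for all tested genes. The RPKM ranges of the groups did not overlap for 8 of the 9 genes, against 52.0% of all tested genes, and Tlr5 was the exception. That share was uneven, with 35.9% of all tested genes higher and 16.1% lower in DISC1-Δ3 without overlap. Without DISC1-Δ3 replicate 3 the count was again 8 lower and 1 higher.

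**Figure D1:**
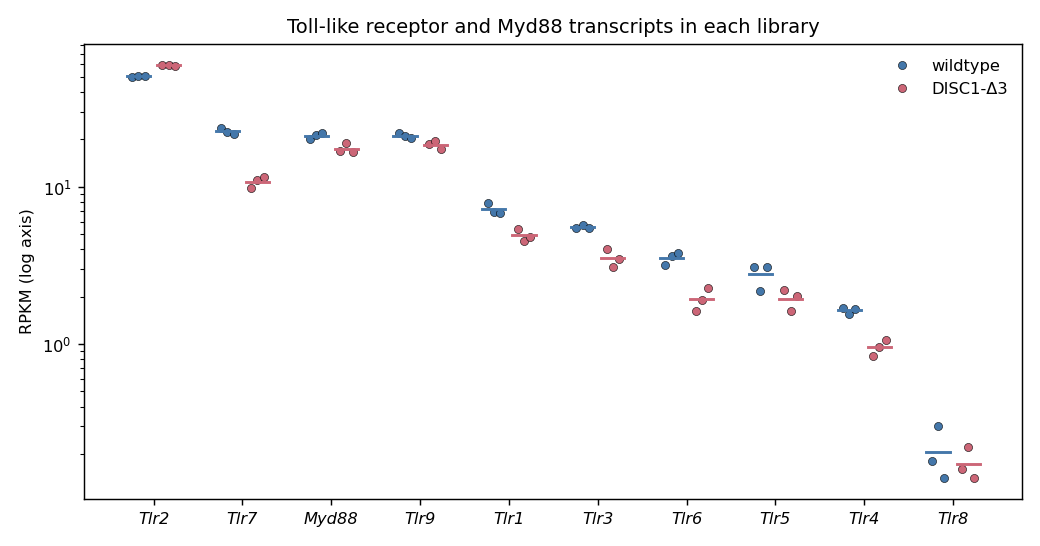
RPKM of the 10 genes in each of the 6 libraries, on a log axis, with wildtype libraries in blue, DISC1-Δ3 libraries in red and the horizontal lines at the group means. Tlr2 is the highest of the 10 in every library and the only one whose DISC1-Δ3 points all lie above the wildtype points, and Tlr7 drops from a mean of 22.5 to 10.8 RPKM.

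The sequence before the transcription start was available for 8 of the 10 genes, from RefSeq on GRCm38.p6, the assembly called mm10 in the submitters' processing notes. Windows of 250 bases before the start were searched on both strands for the NF-kB consensus, the PU.1 core GAGGAAG, the interferon response element (GAAA, then any NN, then GAAA) and the TCF/LEF core CTTTGA, which were chosen with the windows and earlier results in view. The NF-kB consensus occurred upstream of Tlr2, the gene that rose, and of Tlr3, a gene that fell, and in 3.90% of all 32841 windows of the reference table. The Tlr2 match consists of a pair of overlapping matches at positions -173 to -163, counted so that -1 is the last base before the start, and the Tlr3 match lies at -211 to -202. The PU.1 core was found upstream of Tlr9 (-112 to -106) and Tlr1 (-23 to -17), and in 10.6% of all windows. The interferon response element was found upstream of Myd88 (-40 to -31) and, on the minus strand, in a window of Tlr6, and in 2.98% of all windows. The Tlr6 windows lie within the span of the gene, and the bases after their starts were found in no GENCODE transcript of Tlr6, so that start is uncertain. The Tlr3 window and the matches of Tlr2 and Tlr1 also lie within the spans of their genes. They precede a listed start of the gene but not its outermost end. For these windows the bases after the start were found in a GENCODE transcript. The TCF/LEF core, the element bound by the nuclear effectors of Wnt signaling, was in 13.8% of all windows and in 0 of the 10 windows searched. Those 10 windows belong to 8 genes, with 2 windows each for Tlr1 and Tlr6. Tlr4 and Tlr7 had no window and were not searched. A match describes letters only and is no evidence of binding. The windows below, all 5′ to 3′ on the strand of the gene, are shown because they set the gene that rose beside a gene that fell with the same motif, and beside Tlr9 and Myd88, the genes that fell least; capitals mark the motif.
Tlr2, minus strand, chr3:83841609-83841858, NF-kB consensus: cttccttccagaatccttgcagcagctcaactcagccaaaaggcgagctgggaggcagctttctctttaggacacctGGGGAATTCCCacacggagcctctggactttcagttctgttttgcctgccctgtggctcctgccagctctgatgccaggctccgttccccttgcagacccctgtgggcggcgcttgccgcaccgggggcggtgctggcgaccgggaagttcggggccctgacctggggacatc
Tlr3, minus strand, chr8:45410381-45410630, NF-kB consensus: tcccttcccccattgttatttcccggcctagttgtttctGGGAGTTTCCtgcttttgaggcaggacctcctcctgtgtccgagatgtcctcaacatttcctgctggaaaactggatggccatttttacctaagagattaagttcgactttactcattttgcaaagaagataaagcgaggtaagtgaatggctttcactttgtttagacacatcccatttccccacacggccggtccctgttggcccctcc
Tlr9, plus strand, chr9:106222348-106222597, PU.1 core: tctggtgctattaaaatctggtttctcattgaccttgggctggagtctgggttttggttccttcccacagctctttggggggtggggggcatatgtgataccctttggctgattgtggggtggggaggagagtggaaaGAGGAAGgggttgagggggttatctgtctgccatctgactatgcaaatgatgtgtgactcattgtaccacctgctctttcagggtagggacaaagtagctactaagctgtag
Myd88, minus strand, chr9:119340019-119340268, interferon response element: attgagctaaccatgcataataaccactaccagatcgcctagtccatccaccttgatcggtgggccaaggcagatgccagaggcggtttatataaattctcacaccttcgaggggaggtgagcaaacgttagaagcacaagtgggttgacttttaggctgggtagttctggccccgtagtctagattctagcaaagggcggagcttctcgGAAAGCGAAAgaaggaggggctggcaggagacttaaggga

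Among the surface receptors, Tlr2 (gene ID 24088, chr3:83836272-83841824) stood apart by its level and by its direction. It measured 50.1, 50.83 and 50.52 RPKM in wildtype and 59.38, 59.69 and 58.13 RPKM in DISC1-Δ3 replicates 1 to 3, from 1860 to 2614 reads per library. All 3 DISC1-Δ3 libraries were above all 3 wildtype libraries, and the spread within each group was small. In RPKM, 35.9% of all tested genes were likewise higher in DISC1-Δ3 without overlap. The fitted log2 fold change was 0.15 ± 0.045 (SE, n = 3 and 3, edgeR adjusted p = 0.0155), a rise of 10.6%. This rise depended on which libraries were fitted, since without DISC1-Δ3 replicate 1 the log2 fold change was 0.12 (adjusted p = 0.0948) and without DISC1-Δ3 replicate 2 it was 0.11 (adjusted p = 0.131). It also rested on the scaling for its size, as the log2 fold change was 0.23 when counts were scaled by library totals alone.

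Tlr1 and Tlr6, the partners with which Tlr2 forms its heterodimers, both fell. Tlr1 (gene ID 21897, chr5:64924680-64933600) measured 7.93, 6.92 and 6.84 RPKM in wildtype and 5.37, 4.51 and 4.81 RPKM in DISC1-Δ3 libraries, a log2 fold change of -0.64 ± 0.099 (SE, edgeR adjusted p = 5.4e-05). Tlr6 (gene ID 21899, chr5:64953092-64970942) measured 3.19, 3.6 and 3.81 RPKM in wildtype and 1.63, 1.91 and 2.28 RPKM in DISC1-Δ3 libraries, a log2 fold change of -0.98 ± 0.14 (SE, edgeR adjusted p = 3.03e-05). For both genes every DISC1-Δ3 library was below every wildtype library. These genes lie beside each other on chromosome 5 and are close paralogs, and their expected counts were the only ones of the 10 that held fractions of reads. Of the 2976 runs of 50 bases, the read length, in the longest protein-coding GENCODE transcript of Tlr1, 454 (15.3%) also occur in some GENCODE transcript of Tlr6. The division of reads between the pair is therefore uncertain.

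Tlr4 (gene ID 21898, chr4:66827551-66846581), the lipopolysaccharide receptor, was low in all libraries. It measured 1.7, 1.55 and 1.66 RPKM in wildtype, from 181, 197 and 210 reads, and 0.84, 0.96 and 1.06 RPKM in DISC1-Δ3, from 93, 120 and 132 reads. The groups did not overlap, and the log2 fold change was -0.86 ± 0.12 (SE, edgeR adjusted p = 1.76e-05). Its partners at the membrane did not pass the test. Cd14, the surface protein that hands lipopolysaccharide to the complex, had a log2 fold change of 0.06 ± 0.047 (SE, edgeR adjusted p = 0.355), although it passed the threshold at 0.14 (adjusted p = 0.0171) under scaling by library totals alone. Ly96, the subunit that binds the lipid with Tlr4, had -0.23 ± 0.25 (SE, edgeR adjusted p = 0.481) from 22 to 35 reads per library.

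Tlr5 (gene ID 53791, chr1:182954752-182976044), the flagellin receptor, measured 3.08, 2.16 and 3.1 RPKM in wildtype and 2.19, 1.63 and 2.01 RPKM in DISC1-Δ3 libraries. Wildtype replicate 2 lay below DISC1-Δ3 replicate 1, so the groups overlapped. The log2 fold change was -0.61 ± 0.17 (SE, edgeR adjusted p = 0.00722), and without wildtype replicate 3 it was -0.51 (adjusted p = 0.0536). Of the genes that fell it was the only one whose call was lost in any of the fits run.

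Among the endosomal receptors, Tlr7 (gene ID 170743, chrX:167303380-167330574) fell the most. It measured 23.58, 22.43 and 21.56 RPKM in wildtype and 9.83, 11.02 and 11.49 RPKM in DISC1-Δ3 libraries, from 1186, 1352 and 1296 reads and from 515, 653 and 679 reads. The log2 fold change was -1.14 ± 0.065 (SE, edgeR adjusted p = 2.09e-10), so the level fell by 54.7%, and over all fits the log2 value stayed between -1.18 and -1.0. Among all tested genes, 154 (1.12%) had a log2 fold change of -1 or lower. Tlr7 is X-linked, and the difference in Y-linked transcripts between the groups is given above; its part in this result was not tested. Tlr8 (gene ID 170744, chrX:167241123-167264329), the neighbour of Tlr7 on the X chromosome, measured 0.18, 0.3 and 0.14 RPKM in wildtype and 0.16, 0.22 and 0.14 RPKM in DISC1-Δ3 libraries. With 9 to 22 reads per library it was below the minimum level for testing, and a difference between the groups was not detectable at this depth (log2 fold change -0.30 without the filter, edgeR adjusted p = 0.62).

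Tlr3 (gene ID 142980, chr8:45395665-45411075), which senses double-stranded RNA without Myd88, also fell. It measured 5.49, 5.68 and 5.44 RPKM in wildtype and 4.0, 3.07 and 3.45 RPKM in DISC1-Δ3 libraries, with all DISC1-Δ3 values below all wildtype values. The log2 fold change was -0.73 ± 0.097 (SE, edgeR adjusted p = 9.22e-06). Ticam1, its adapter, was at 13.7 to 13.9 RPKM in wildtype and 13.2 to 16.6 RPKM in DISC1-Δ3 libraries and did not pass the test (log2 fold change 0.05 ± 0.083, SE, edgeR adjusted p = 0.659).

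Tlr9 and Myd88 lie on chromosome 9 and changed by similar amounts. Tlr9 (gene ID 81897, chr9:106222598-106226876), the CpG DNA receptor, measured 21.87, 21.06 and 20.31 RPKM in wildtype and 18.73, 19.43 and 17.25 RPKM in DISC1-Δ3 libraries. Myd88 (gene ID 17874, chr9:119335934-119340018) measured 20.16, 21.25 and 21.85 RPKM in wildtype and 16.92, 18.98 and 16.53 RPKM in DISC1-Δ3 libraries. For both, the DISC1-Δ3 values lay just below the wildtype range. The log2 fold change was -0.27 ± 0.063 for Tlr9 (SE, edgeR adjusted p = 0.00217) and -0.35 ± 0.077 for Myd88 (SE, edgeR adjusted p = 0.0014), so the levels fell by 17.1% and by 21.6%. Among all tested genes, 10.7% were called lower with a fall as large as that of Myd88 or larger.

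In wildtype libraries the order of levels in RPKM was Tlr2, Tlr7, Myd88, Tlr9, Tlr1, Tlr3, Tlr6, Tlr5, Tlr4 and Tlr8. The ranges of Tlr7 and Myd88 overlapped, as did those of Myd88 and Tlr9, so the order among these neighbours is not resolved, and all other neighbours were separate. In DISC1-Δ3 libraries Tlr7 moved below Tlr9 and Myd88, whose ranges again overlapped, and Tlr5 and Tlr6 could no longer be separated.

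The make-up of the receptor transcripts shifted accordingly. In wildtype libraries Tlr2 supplied 43.9% ± 0.982 of the summed RPKM of Tlr1 to Tlr9, against 58.1% ± 0.258 in DISC1-Δ3 libraries (SD, n = 3 each). The share of Tlr7 was 19.6% ± 0.559 and 10.6% ± 0.907 (SD, n = 3 each). The share of Tlr9 was 18.3% ± 0.384 and 18.2% ± 0.926 (SD, n = 3 each), a difference within the spread of replicates. The ratio of Tlr2 to Tlr7, a ratio within each library that does not depend on scaling between libraries, was 2.12, 2.27 and 2.34 in the wildtype libraries, and the DISC1-Δ3 libraries had 6.04, 5.42 and 5.06. The ratio of Tlr9 to Tlr7 likewise moved from 0.936 ± 0.00766 to 1.72 ± 0.205 (SD, n = 3 each), without overlap.

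**Figure D2:**
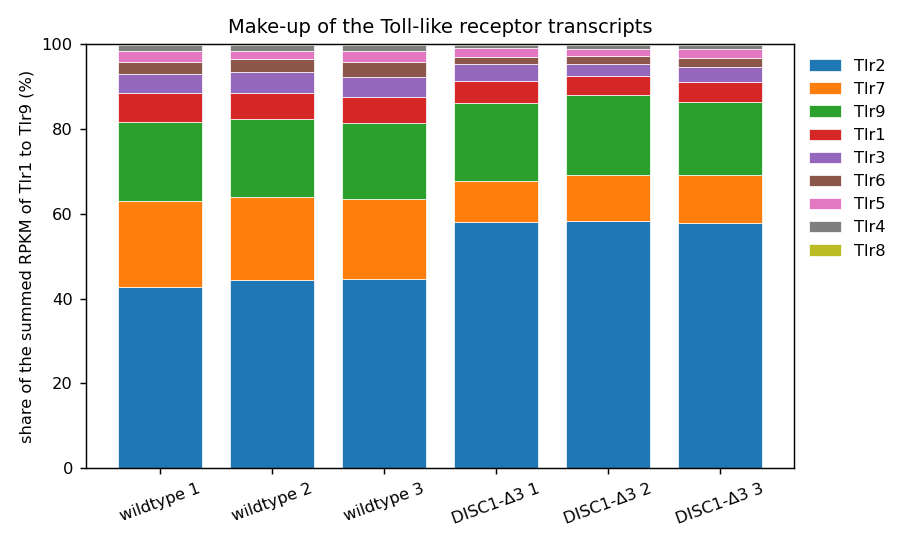
Share of each receptor in the summed RPKM of Tlr1 to Tlr9, in percent, with 1 stacked bar per library running from 0 to 100%. The Tlr2 segment grows from a mean of 43.9% in the wildtype bars to 58.1% in the DISC1-Δ3 bars, the Tlr7 segment shrinks from 19.6% to 10.6%, and the Tlr9 segment keeps its size.

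Summed by compartment, the endosomal receptors Tlr3, Tlr7, Tlr8 and Tlr9 went from 49.3 ± 1.84 RPKM in wildtype to 32.9 ± 0.728 RPKM in DISC1-Δ3 libraries (SD, n = 3 each). The surface receptors Tlr1, Tlr2, Tlr4, Tlr5 and Tlr6 went from 65.7 ± 0.524 to 68.8 ± 0.567 RPKM, a ratio of 1.05 that was 0.99 when RPKM was divided by the TMM factors of the edgeR fit (an alternative chosen after seeing the data), so the direction of this sum depended on the scaling. This second sum was carried by Tlr2. Without Tlr2 it went from 15.2 ± 0.858 to 9.73 ± 0.63 RPKM, a ratio of 0.641 (0.606 with the TMM factors). The ratio for the endosomal receptors, with none removed, was 0.667 (0.631 with the TMM factors). Their fall was uneven, since Tlr7 went from a mean of 22.5 to 10.8 RPKM and Tlr9 from 21.1 to 18.5 RPKM. The 2 ratios are therefore not of like sums.

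Because microglial markers were lower in DISC1-Δ3 libraries, each gene was also divided by the summed RPKM of the 18 microglial markers in its own library. Tlr2 was 0.284%, 0.287% and 0.281% of the marker sum in wildtype and 0.462%, 0.463% and 0.468% in DISC1-Δ3 libraries, a log2 difference of 0.71. Tlr9 and Myd88 were also above the wildtype range on this scale in every DISC1-Δ3 library, with log2 differences of 0.29 and 0.21, although both fell per total reads. Tlr7 was 0.134%, 0.127% and 0.12% of the marker sum in wildtype and 0.0765%, 0.0854% and 0.0925% in DISC1-Δ3 libraries, a log2 difference of -0.58, and Tlr4 lay below the wildtype range with -0.30. For each of these 5 genes the exact two-sided permutation test gave p = 0.1, the smallest value that 3 against 3 libraries can reach (adjusted p = 0.18 over 9 genes), so this design cannot take them past the threshold. Tlr6 (-0.39), Tlr3 (-0.19), Tlr1 (-0.08) and Tlr5 (-0.03) overlapped between the groups, with exact permutation p from 0.2 to 0.8.

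**Figure D3:**
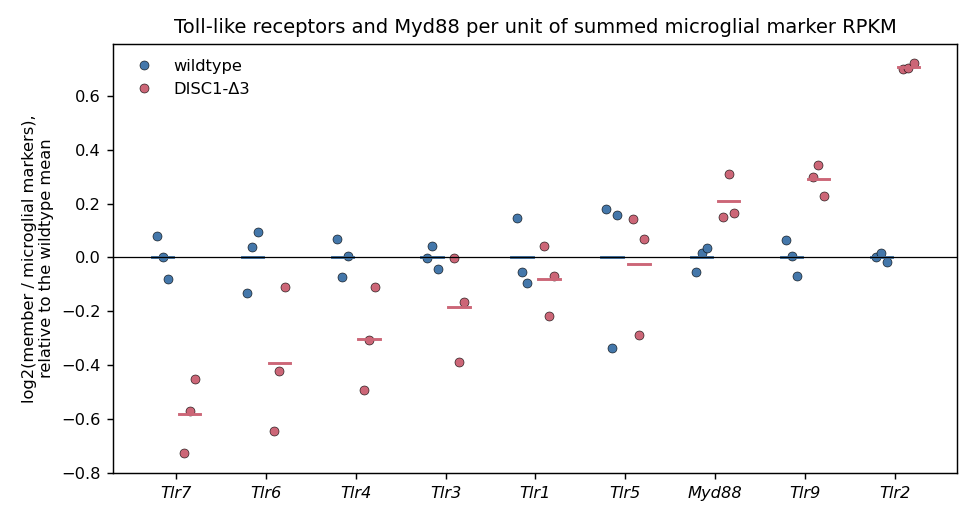
Each gene divided by the summed RPKM of 18 microglial markers in the same library, as a log2 value relative to the wildtype mean, with 1 point per library and lines at the group means. Tlr2 sits at 0.71 in the DISC1-Δ3 libraries, Tlr9 and Myd88 sit above 0, Tlr7 and Tlr4 sit below all wildtype points, and the points of Tlr6, Tlr3, Tlr1 and Tlr5 overlap.

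Seen beside the single markers, whose log2 fold changes per total reads ran from -0.69 for C1qb to -0.23 for P2ry12, Tlr3, Tlr4, Tlr6 and Tlr7 fell further than any of the 18. The margin of Tlr3 (-0.73 ± 0.097, SE) over C1qb (-0.69 ± 0.044, SE) was within the standard error. With limma on log2(RPKM + 1) Tlr3 was at -0.54 and Tlr4 at -0.43, whereas C1qb stayed at -0.61 or lower in every fit. The rank of Tlr3 and Tlr4 beside the markers thus changed with the fit. Tlr1 and Tlr5 lay within the range, with 5 of the 18 markers below each. Myd88 fell less than 14 of the 18 markers and Tlr9 less than 17, and Tlr2 was above all of them. The part of the microglial marker level in these differences was not tested. Markers of other cells that can carry Toll-like receptors moved less uniformly. Of 8 markers of border macrophages 3 fell and 0 rose, and their summed RPKM was 117 to 123 in wildtype and 103 to 110.33 in DISC1-Δ3 libraries. Of 7 tested neutrophil markers 3 fell and 1 rose (sums of 172 to 188 and 135 to 147 RPKM), and of 4 tested monocyte markers 3 fell and 1 rose (84.1 to 92.9 and 55.8 to 62.7 RPKM). The monocyte median log2 fold change was -1.02, lower than the microglial -0.49. Of 3 tested markers of B and T cells 2 fell and 0 rose (29.2 to 29.9 and 18.8 to 21.6 RPKM, median -0.66). Among all tested genes 19.5% fell and 20.4% rose. Of 6 markers of pericytes, the other cells in which the NG2 promoter is active, all 6 rose (136 to 145 and 189 to 197 RPKM). Among them are Cspg4, which is also in the OPC list, and Kcnj8, whose call was lost in 4 of 15 alternative fits. Rises were not particular to pericytes. Of tested markers, 8 of 10 rose for OPCs (1 fell), 6 of 7 for neurons and 4 of 7 for endothelium (0 fell in both). For mature oligodendrocytes 5 of 8 fell and 0 rose, and for astrocytes 4 of 7 fell and 1 rose.

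**Figure D4:**
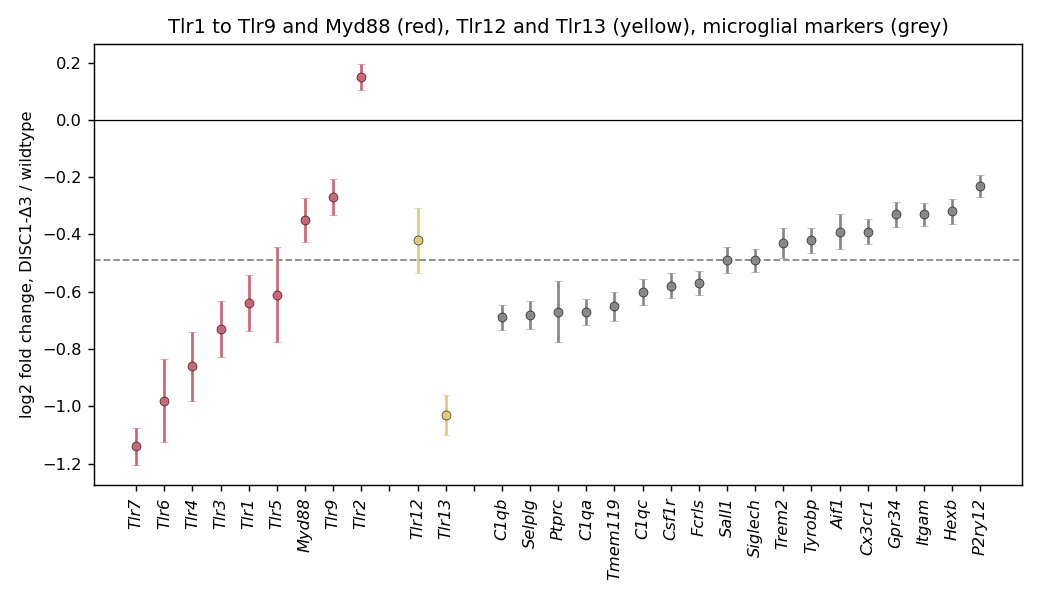
Log2 fold change of DISC1-Δ3 against wildtype libraries with its standard error (bars), from the edgeR fit, for the 9 tested genes (red), Tlr12 and Tlr13 (yellow) and 18 microglial markers (grey), with the dashed line at the marker median of -0.49. Tlr7 at -1.14 and Tlr13 at -1.03 lie below every marker, and Tlr2 at 0.15 is the only point above 0.

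The table also holds Tlr11, Tlr12 and Tlr13, of which Tlr12 and Tlr13 fell. Tlr13, a receptor for bacterial ribosomal RNA that sits in endosomes and is X-linked like Tlr7, measured 11.72, 12.31 and 12.12 RPKM in wildtype and 6.42, 6.27 and 6.1 RPKM in DISC1-Δ3 libraries. Its log2 fold change was -1.03 ± 0.07 (SE, edgeR adjusted p = 2.07e-09), and the ratio of Tlr7 to Tlr13 overlapped between the groups at 1.87 ± 0.124 and 1.72 ± 0.179 (SD, n = 3 each). Tlr12, which binds a profilin of protozoan parasites, fell with a log2 fold change of -0.42 ± 0.11 (SE, edgeR adjusted p = 0.0072). Tlr11 had at most 3 reads in any library and was not tested.

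Of the 11 tested accessory proteins, a list that includes these receptors, 7 fell, 0 rose and the median log2 fold change was -0.33. For this list and those below, the shares among all tested genes were 19.5% lower and 20.4% higher. Unc93b1, the chaperone that carries endosomal receptors out of the endoplasmic reticulum, measured 498.63, 486.18 and 486.1 RPKM in wildtype and 372.34, 366.54 and 348.14 RPKM in DISC1-Δ3 libraries (log2 fold change -0.52 ± 0.043, SE, edgeR adjusted p = 3.09e-08). Tlr7 fell further than its chaperone and Tlr9 less far, so that per unit of Unc93b1 the Tlr7 level was 0.0459 ± 0.00148 in wildtype and 0.0298 ± 0.00331 in DISC1-Δ3 libraries, while the Tlr9 level was 0.043 ± 0.00108 and 0.051 ± 0.00182 (SD, n = 3 each). Neither ratio overlapped between the groups. Ly86, which partners with the receptor-like protein Cd180, fell with a log2 fold change of -0.71, Cd180 itself with -0.21 (edgeR adjusted p = 2.47e-10 and 0.00897), and Cnpy3, a chaperone for several Toll-like receptors, with -0.33 (edgeR adjusted p = 8.94e-05). The call for Cd180 was lost without wildtype replicate 2 (adjusted p = 0.0541) and under scaling by library totals alone (adjusted p = 0.0842).

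The adapters besides Myd88 gave 3 that fell and 1 that rose among 5 tested, with a median log2 fold change of -0.43. Ticam2, the bridging adapter between Tlr4 and Ticam1, went from 6.96 to 7.37 RPKM in wildtype to 4.66 to 5.04 RPKM in DISC1-Δ3 libraries (log2 fold change -0.64 ± 0.087, SE, edgeR adjusted p = 1.22e-05). Pik3ap1, an adapter that links the receptors to phosphoinositide 3-kinase, fell with -0.43 (edgeR adjusted p = 1.33e-06), and Tirap, which brings Myd88 to Tlr2 and Tlr4, with -0.54 (edgeR adjusted p = 0.00627, and 0.063 without wildtype replicate 2). Sarm1 was called higher at 0.21 (edgeR adjusted p = 0.0422), a call that 10 of 15 alternative fits did not keep.

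Downstream of Myd88, 10 of 19 tested kinases and ubiquitin ligases fell and 1 rose, with a median log2 fold change of -0.14. Map3k8, the kinase that links the receptors to ERK, fell with -0.56, Tab2, a subunit of the complex of the kinase Map3k7, with -0.49, Btk, a tyrosine kinase of myeloid and B cells, with -0.48 and Irak2, one of the kinases recruited by Myd88, with -0.43 (edgeR adjusted p from 2.11e-06 to 0.00011). Traf3, a ubiquitin ligase of the interferon branch, rose by 0.32 (edgeR adjusted p = 0.000364). Traf6, the ligase that acts directly after the Irak kinases, had a log2 fold change of -0.04 (edgeR adjusted p = 0.759). The count of 10 was 5 without wildtype replicate 1, 6 without wildtype replicate 3 and 5 under scaling by library totals alone, since Irak1, Irak4, Tab1, Ikbkg and Peli1, with log2 fold changes between -0.33 and -0.14, lost their calls in some of these fits.

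Among 11 tested transcription factors 5 fell and 0 rose; the 5 were Spi1 and the interferon regulatory factors Irf1, Irf5, Irf7 and Irf8, whereas Irf3 did not pass the test (log2 fold change -0.01, edgeR adjusted p = 0.957). Irf1, which is itself induced by interferon and NF-kB, measured 65.53, 65.22 and 66.27 RPKM in wildtype and 35.91, 37.16 and 37.71 RPKM in DISC1-Δ3 libraries, a log2 fold change of -0.91 ± 0.048 (SE, edgeR adjusted p = 7.07e-11). Irf7 fell with -0.61, Irf5 with -0.52, Irf8 with -0.48 and Spi1, the gene of PU.1, with -0.34 (edgeR adjusted p from 5.13e-07 to 9.41e-06). The 5 NF-kB subunits Nfkb1, Nfkb2, Rela, Relb and Rel had log2 fold changes between -0.10 and 0.18, none past the threshold. Of these, Nfkb2 at 0.18 (edgeR adjusted p = 0.0507) passed it in 6 of 15 alternative fits, among them those without wildtype replicate 1 (adjusted p = 0.0338) and without DISC1-Δ3 replicate 3 (adjusted p = 0.0105), and Rela passed it at 0.15 (adjusted p = 0.0189) under scaling by library totals alone. Irf8 and Spi1 are at the same time lineage factors of microglia.

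The 15 tested inhibitors split, with 5 that fell and 4 that rose and a median log2 fold change of -0.09. Atf3, Dusp1 and Nfkbia, all induced as feedback, fell with -0.50, -0.43 and -0.33 (edgeR adjusted p from 4.69e-08 to 4.11e-06). Tollip, which holds Irak1 inactive, rose by 0.31 and Nfkbib, an inhibitory partner of NF-kB, rose by 0.22 (edgeR adjusted p = 0.000142 and 0.00362). Tnip1, a partner of the deubiquitinase Tnfaip3, rose by 0.25 (edgeR adjusted p = 0.0104), a call lost without wildtype replicate 2 (adjusted p = 0.0645) and without DISC1-Δ3 replicate 1 or 2 (adjusted p = 0.0691 and 0.0528). The counts rested on single libraries, with 3 that fell without wildtype replicate 1, wildtype replicate 2 or DISC1-Δ3 replicate 2, and 2 that rose without wildtype replicate 2, DISC1-Δ3 replicate 1 or DISC1-Δ3 replicate 2.

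Genes that Toll-like receptor signaling induces also moved both ways, with 6 that rose and 3 that fell among 16 tested and a median log2 fold change of 0.13. The 6 include Il12b, whose limit is given below, and Cxcl10 (0.15), whose call was lost in 6 of 15 alternative fits. The count that fell was near the share of 19.5% among all tested genes. Il1b, the inflammatory cytokine, measured 26.68, 27.53 and 28.26 RPKM in wildtype and 10.13, 10.84 and 10.83 RPKM in DISC1-Δ3 libraries, a log2 fold change of -1.46 ± 0.083 (SE, edgeR adjusted p = 1.84e-10). The chemokines Ccl4 and Ccl3 fell with -0.55 and -0.53 (edgeR adjusted p = 9.41e-09 and 7.66e-07). Ccl5 measured 5.36, 8.06 and 7.59 RPKM in wildtype and 13.44, 17.33 and 15.99 RPKM in DISC1-Δ3 libraries, a log2 fold change of 1.06 ± 0.19 (SE, edgeR adjusted p = 0.000222). The neutrophil chemokines Cxcl1 and Cxcl2 rose by 0.71 and 0.41 (edgeR adjusted p = 0.00107 and 2.05e-05). Il12b, which encodes a subunit of interleukin-12, rose by 2.04 ± 0.3 (SE, edgeR adjusted p = 3e-05), from 6, 9 and 10 reads in wildtype and 29, 41 and 40 reads in DISC1-Δ3 libraries, and thus from a very low level. Its wildtype libraries were at 0.19, 0.23 and 0.26 RPKM. It therefore reached the minimum of 0.5 RPKM only through the group where it was high, and its call is no independent support. Over 14 alternative fits its log2 value ran from 0.70 to 2.15. Tnf, the best known target of these receptors, was at 196 to 200.41 RPKM in wildtype and 194 to 204 RPKM in DISC1-Δ3 libraries and did not pass the test (log2 fold change -0.08, edgeR adjusted p = 0.157).

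The listed receptors of the interleukin-1 family, most of which share Myd88, gave 3 that fell and 1 that rose among 5 tested, with a median of -0.57. Several were near the minimum level, such as Il1r1 at 0.7 to 1.38 RPKM and Il18rap at 0.68 to 1.04 RPKM. With a minimum of 1 RPKM in 3 libraries, 3 were tested, of which 1 fell and 1 rose, with a median of -0.24. Il1rl2, a receptor for interleukin-36, fell with -0.81 and Il1r1, the interleukin-1 receptor, with -0.73, whereas their common co-receptor Il1rap rose by 0.54 (edgeR adjusted p = 5.64e-06, 0.0037 and 0.000779). Il18rap, a subunit of the interleukin-18 receptor, fell with -0.57 (edgeR adjusted p = 0.023), a call that 6 of 14 alternative fits did not keep, among them those without wildtype replicate 1 (adjusted p = 0.0635), wildtype replicate 3 (adjusted p = 0.0786) or DISC1-Δ3 replicate 2 (adjusted p = 0.0556). Over all 7 lists, 36 of 82 tested pathway genes fell and 13, with Il12b, rose, against 19.5% and 20.4% of all tested genes. The share that rose was thus below that of all genes, and the share that fell was above it. The median log2 fold change of the 82 genes was -0.14. This fall was less deep than the median of -0.64 for the receptors and Myd88 themselves, and the 2 medians were not compared by a test.

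**Figure D5:**
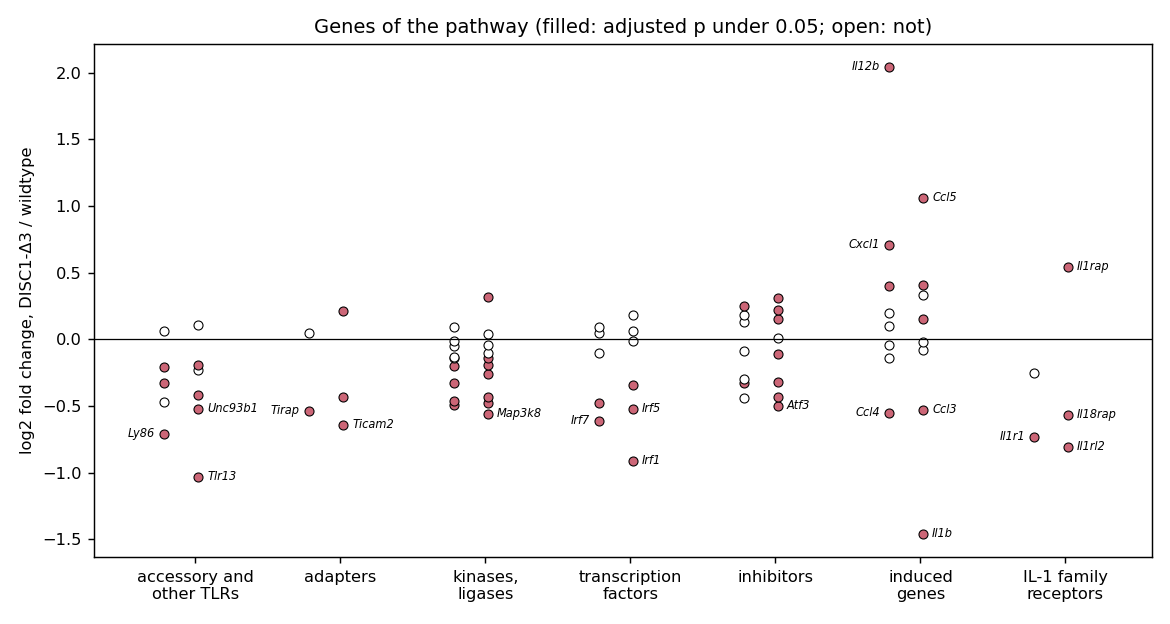
Log2 fold change of DISC1-Δ3 against wildtype libraries for the 82 tested pathway genes in 7 lists, with 1 point per gene, filled where the adjusted p was under 0.05 and open where it was not, and names at a change of 0.5 or more in either direction. The accessory proteins and transcription factors have filled points below 0 only, and the induced genes spread from -1.46 for Il1b to 2.04 for Il12b. Il12b reached the level needed for testing only through the DISC1-Δ3 libraries.

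The genes whose profile over the 6 libraries was most like that of Tlr2, Tlr9 and Myd88, the 3 members with the highest mean RPKM over all 6 libraries (in wildtype alone Tlr7 ranked second), were found by the smallest root-mean-square difference of centred log2 CPM among 11710 genes. For Tlr2 these were Ctbp1 (0.0062), Snu13 (0.012) and Eno1 (0.015), for Tlr9 they were Tmbim1 (0.019), Zyx (0.021) and Olfml2b (0.021), and for Myd88 they were Nagpa (0.027), Tnfrsf1a (0.028) and Serhl (0.029). Ctbp1, a transcriptional corepressor, measured 115.04, 115.26 and 116.65 RPKM in wildtype and 136.82, 136.77 and 133.68 RPKM in DISC1-Δ3 libraries, and so had a log2 fold change of 0.15 as Tlr2 did. Tnfrsf1a, a receptor of tumour necrosis factor, measured 79.93, 80.92 and 81.75 RPKM in wildtype and 63.96, 71.76 and 63.75 RPKM in DISC1-Δ3 libraries, with DISC1-Δ3 replicate 2 above the other two as for Myd88. All 6 libraries enter both the likeness and the comparison of groups, so these genes are a description of the profile.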

How the data were processed

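Expected counts and RPKM per gene and library were deposited by the authors in 1 table. The submitters' processing notes name Bowtie2 2.2.5 and mm10; the counter is not given in the sources used here. Expected counts divide reads that match several genes (90.2% of values above 0 were whole), and RPKM values were used as deposited by the authors. Libraries were single-end 50-base reads from oligo(dT)-selected RNA, with no strand information or molecular identifiers named. The 4 columns with averages per group were left aside.

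Expected counts were rounded and tested with edgeR 4.0.16 (R 4.3.3; TMM scaling, quasi-likelihood test, genotype as the only term) for genes that reached 0.5 RPKM in 3 or more of the 6 libraries, with Benjamini-Hochberg adjustment over 13792 genes and two-sided p-values. Alternatives were DESeq2 1.42.0, limma 3.58.1 on log2(RPKM + 1) and log2(RPKM + 0.1), other filters and scalings, the replicate number as a block, and each library left out. Named were all 10 genes, Tlr11 to Tlr13, Disc1, in each list the 3 largest rises and falls past the threshold and further listed genes past it, and the 3 profiles most like each of the 3 most abundant members; Cd14, Ly96, Ticam1, Traf6, Tnf, Irf3 and the NF-kB subunits were named after their values were seen. The genes, lists and motifs were chosen with earlier results of these data known. Gene positions and promoter sequences are RefSeq's on GRCm38.p6, where 18085 of 18211 gene IDs matched.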

Additional observations from a re-analysis of the deposited data

How the results depend on the processing

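Leaving out single libraries gave 0 to 1 members higher and 7 to 8 lower, with 9 to 15 and 28 to 37 pathway genes higher and lower. The count of members higher was 0 without DISC1-Δ3 replicate 1 and without DISC1-Δ3 replicate 2. The log2 fold change then ran from 0.11 to 0.16 for Tlr2 and from -0.77 to -0.51 for Tlr5. All other alternatives kept 1 member higher and 8 lower, and no member changed direction in any fit.

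Relative to microglial markers, the log2 difference of Tlr2 was 0.60 without the 3 highest markers (C1qa, C1qb and C1qc) and 0.65 against the geometric mean of all 18, that of Tlr9 was 0.18 and 0.23, and that of Myd88 was 0.10 without the 3 highest markers. Leaving out single libraries gave 0.70 to 0.72, 0.26 to 0.32 and 0.16 to 0.24 for these genes, and -0.19 to 0.11 for Tlr5. The cause was not tested.

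Scaling by library totals shifted the median log2 fold change of all genes from 0.007 to 0.09 and the share of calls that were higher from 51.1% to 69.2%, the share that limma gave too, with 18 pathway genes higher and 27 lower; the member calls stayed. DESeq2 called 4600 genes in place of 5498.

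With the replicate number as a block the counts were 1 member higher and 8 lower and 5429 genes in all. The correlations of same-numbered deviations were 0.0581, 0.0217 and -0.0488, so no deviation shared by number was detected. With 3 libraries per group, these values cannot show whether the libraries were handled in pairs.

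Tlr8, with 9 to 22 reads, limits any statement on that receptor. Reads carried no molecular identifiers, so they are not independent molecules.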
